A study of Mus musculus with 6 samples.

Results

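Mast cell granule proteases are the enzymes that these cells pack, bound to heparin and serglycin, into secretory granules and release when antigen cross-links IgE on the receptor FcεRI. The set was fixed by name and held 10 genes of 3 classes. Chymase-type serine proteases are encoded by Mcpt1, Mcpt2, Mcpt4, Mcpt9 and Cma1, in a cluster with their relatives Mcpt8 and Ctsg. Tpsb2 and Tpsab1 are tryptases, and Cpa3 is a carboxypeptidase. Each gene was represented by the probe set that the platform annotation gives to it alone, and 9 of the 10 were found, out of 19938 genes measured. The probe sets for Mcpt9 are shared with Cma2, so Mcpt9 has no value of its own.

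RNA came from bone marrow mast cells of C57BL/6J mice, either wild type (WT) or without the microRNA miR-155 (miR-155 KO). Cells of both genotypes were derived over 5 weeks with the growth factors SCF, at 1 ng/ml, and IL-3, at 0.5 ng/ml. They were sensitised overnight with anti-DNP IgE (0.2 µg/ml) and stimulated for 1 h with its antigen DNP-HSA (20 ng/ml). There were 3 separately grown cultures of each genotype, and each was put on 1 Affymetrix Mouse Gene 1.0 ST array, which makes 6 arrays. All 6 were stimulated, so the arrays compare genotypes and do not measure the effect of antigen, and the labels give no age or sex of the mice and do not describe how the knockout was made. The microRNA missing from the KO cells has miR-155-5p among its mature forms. In the sequence of miR-155-5p the seed (bases 2 to 8), through which it pairs with target transcripts, is in capitals. Whether the genotypes differ in anything else was not tested.

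mmu-miR-155-5p (RefSeq, GRCm38.p6, chr16:84714143-84714165, plus strand): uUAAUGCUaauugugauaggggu

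Proteases of this family mark mast cell subtypes. In the mouse, mast cells of connective tissue are known for Cma1, Mcpt4, Tpsb2 and Cpa3, and those of mucosal surfaces for Mcpt1 and Mcpt2. Mcpt8 is best known as a protease of basophils, and Ctsg, cathepsin G, of neutrophils and some mast cells. The C57BL/6 strain is known to carry a defect in Tpsab1, and the RefSeq gene table of the C57BL/6J assembly lists that gene as a transcribed pseudogene, while the other 9 are protein coding. In that table Mcpt1, Mcpt2, Mcpt9, Mcpt4, Mcpt8 and Ctsg follow each other in this order on chromosome 14, with the granzyme gene Gzme next to Ctsg. Cma1 lies on the same chromosome, Tpsab1 and Tpsb2 are neighbours on chromosome 17, and Cpa3 is on chromosome 3.

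Mast cell surface markers were bright apart from Enpp3, and neutrophil markers were dim. As a scale for what follows, array medians were 3.67 to 3.74, and array upper quartiles 6.01 to 6.09 (log2 intensity). Kit, the SCF receptor, averaged 11.89 in WT and 11.82 in KO, and Fcer1a, the IgE-binding chain of FcεRI, 12.06 and 12.10. Enpp3, another mast cell surface marker, averaged 2.71 in WT and 2.74 in KO, under the array medians. All 11 neutrophil granule markers were dim, and their mean per array lay between 3.15 and 3.20 in WT and between 3.06 and 3.25 in KO. Elane, neutrophil elastase, averaged 3.28 and 3.25, and Mpo, myeloperoxidase, 3.19 and 3.11. The 5 basophil markers had means of 6.72 to 7.10 in WT and 6.71 to 6.80 in KO. Of these Itga2b, Cd200r3 and Il3ra were above the upper quartiles, and Itga2 was under the medians. The 9 macrophage markers had means of 4.32 to 4.42 and 4.05 to 4.21, with only Cx3cr1 and Cd68 above the upper quartiles. KO replicate 1 lay apart from the other arrays on the first principal component of all genes (48.3% of the variance), at 32.0. On the same axis KO replicates 2 and 3 had scores of 5.36 and 7.31, and WT scores ranged from -19.5 to -10.6. Mir155 read 2.99 ± 0.15 in WT and 2.86 ± 0.08 in KO (log2, SD, n = 3), below the array medians in both, so its probe set does not check the labels.

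The granule protease signals fell into 3 tiers. Cpa3, Tpsb2 and Cma1 were among the brightest genes on every array, Mcpt8, Tpsab1, Mcpt2 and Mcpt4 lay between 4.49 and 7.58, and Ctsg and Mcpt1 were under the array medians. A signal depends on a probe set's own probes, so the order is one of signals and not of transcript abundance. Cpa3, the mast cell carboxypeptidase, ranked 5 among the 19938 genes on every one of the 6 arrays. Tpsb2, the tryptase also called Mcpt6, ranked between 6 and 16, and Cma1, the chymase with elastase-like activity also called Mcpt5, between 39 and 54. Along the order of mean signals, Cpa3 lay above Tpsb2 and Tpsb2 above Cma1 on 6 of 6 arrays. Mcpt8 lay above Tpsab1 on 3 arrays, so this pair has no order beyond its spread, and Tpsab1 lay above Mcpt2 on 5. Mcpt2 over Mcpt4, Mcpt4 over Ctsg and Ctsg over Mcpt1 held on all 6.

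**Figure D1:**
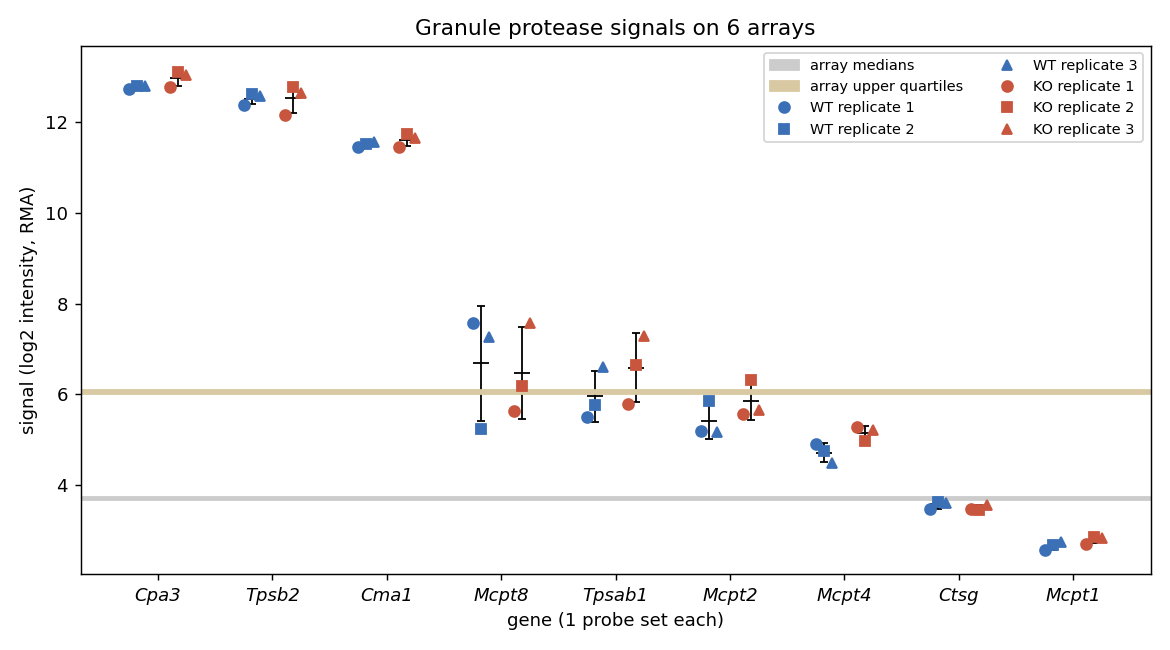
Signal of each granule protease (vertical axis, log2 intensity after RMA; genes in order of mean signal), with WT arrays in blue and miR-155 KO arrays in red, 1 point per culture, and black bars for the mean ± SD of 3 arrays. Cpa3, Tpsb2 and Cma1 lie above 11, Mcpt8 spans 5.23 to 7.58 in no order of genotype, and Ctsg and Mcpt1 lie under the grey band of array medians (3.67 to 3.74).

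Among the 3 brightest proteases the genotypes were close. Cpa3 read 12.74, 12.79 and 12.80 in WT replicates 1, 2 and 3 and 12.77, 13.11 and 13.03 in KO replicates 1, 2 and 3. The WT cultures lay close together, KO replicate 1 fell among them and the other KO arrays lay higher, so the groups overlapped. The difference (KO minus WT here and throughout) was 0.19 (SE 0.10, 95% interval -0.05 to 0.43, limma adjusted p = 0.516). Tpsb2 read 12.37, 12.62 and 12.58 in WT and 12.15, 12.78 and 12.65 in KO. KO replicates 1 and 2 were the lowest and the highest of all 6 arrays, and the difference was 0.01 (SE 0.16, interval -0.36 to 0.37, adjusted p = 0.995). Cma1 read 11.45, 11.52 and 11.57 in WT and 11.46, 11.74 and 11.64 in KO, again with overlap. Its difference was 0.10 (SE 0.10, interval -0.12 to 0.32, adjusted p = 0.769), 0.17 when KO replicate 1 was left out and 0.04 when KO replicate 2 was. For Cpa3 the same left 0.29 and 0.12. The upper interval bounds of these genes stay under 0.5 log2 units. The highest gene signals per array ran from 13.35 to 13.79, so Cpa3 and Tpsb2 lie close to the top of the scale, where arrays can compress differences.

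Mcpt4, the connective tissue chymase closest in function to human chymase, was the member with the lowest p. It read 4.91, 4.74 and 4.49 in WT and 5.27, 4.97 and 5.22 in KO. Every KO array lay above every WT array, though KO replicate 2 exceeded WT replicate 1 by little. The means were 4.71 ± 0.21 and 5.15 ± 0.16 (SD, n = 3), a difference of 0.44 (SE 0.13, interval 0.15 to 0.73, 1.36-fold), with an unadjusted p of 0.00806 and a limma adjusted p of 0.174. It did not pass over all genes, and its adjusted p ran from 0.139 to 0.395 over the alternatives. Mcpt4 was the only member whose groups did not overlap, 1 of 9 or 11.1%, and the same held for 17.2% of all genes tested (8.18% with KO above WT and 9.05% with KO below), so the share among the members was not above the background.

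Mcpt1, the mucosal chymase that lies 2 genes before Mcpt9 in the cluster, stayed at the floor of the arrays. Its values ran from 2.56 to 2.75 in WT and from 2.70 to 2.85 in KO, between the percentiles 8.3 and 22.2 of all probe sets. The difference was 0.13 (SE 0.09, adjusted p = 0.649), at a level where signal and background are not separated. The promoters of Mcpt1 and Mcpt4 were alike nonetheless. Promoter windows from RefSeq matched 7 of the 10 genes, Mcpt2, Tpsab1 and Tpsb2 having no entry. Over the 250 bases before the start site, a global alignment of Mcpt1 with Mcpt4 gave 209 identical bases, 33 mismatches and 16 gap bases, an identity of 81.0%. The other 20 pairs among the 7 genes had 39.4% to 50.4%. The windows of the pair are printed to show this likeness beside their unlike signals, that of Mcpt8 because its signal varied most, and those of Cma1 and Cpa3 as the brightest members with an entry. Build GRCm38.p6 was used, sequences run 5′ to 3′ on the gene's strand and end at the base before the start site, and capitals mark GATAA and TATAAA on either strand.

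Mcpt1 (chr14:56017714-56017963, plus strand): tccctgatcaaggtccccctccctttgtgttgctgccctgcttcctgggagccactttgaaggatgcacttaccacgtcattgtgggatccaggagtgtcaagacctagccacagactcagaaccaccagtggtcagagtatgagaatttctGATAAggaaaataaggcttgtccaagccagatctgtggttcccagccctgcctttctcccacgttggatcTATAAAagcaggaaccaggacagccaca
Mcpt4 (chr14:56062311-56062560, minus strand): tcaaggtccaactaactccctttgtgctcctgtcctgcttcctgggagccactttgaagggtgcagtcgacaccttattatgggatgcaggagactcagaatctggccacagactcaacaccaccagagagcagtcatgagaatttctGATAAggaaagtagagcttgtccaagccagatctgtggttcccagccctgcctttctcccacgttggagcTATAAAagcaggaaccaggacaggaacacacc
Mcpt8 (chr14:56085198-56085447, minus strand): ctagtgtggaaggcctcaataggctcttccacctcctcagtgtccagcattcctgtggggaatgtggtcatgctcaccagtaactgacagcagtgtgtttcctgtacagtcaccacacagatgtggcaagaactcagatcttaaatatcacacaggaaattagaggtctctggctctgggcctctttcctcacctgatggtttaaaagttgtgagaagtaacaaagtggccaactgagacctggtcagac
Cma1 (chr14:55944676-55944925, minus strand): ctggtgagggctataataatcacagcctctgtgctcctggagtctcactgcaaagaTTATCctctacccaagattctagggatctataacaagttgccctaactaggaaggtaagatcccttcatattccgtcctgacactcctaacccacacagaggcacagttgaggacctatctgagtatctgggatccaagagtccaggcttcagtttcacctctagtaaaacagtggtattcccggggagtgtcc
Cpa3 (chr3:20242182-20242431, minus strand): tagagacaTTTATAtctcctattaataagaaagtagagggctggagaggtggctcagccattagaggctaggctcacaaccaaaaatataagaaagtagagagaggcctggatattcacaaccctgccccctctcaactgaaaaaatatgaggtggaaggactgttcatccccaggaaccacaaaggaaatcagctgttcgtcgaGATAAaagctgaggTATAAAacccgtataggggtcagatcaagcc

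GATAA, the core bound by GATA factors such as Gata1 and Gata2, occurred in 4 of the 7 windows (Cpa3, Cma1, Mcpt1 and Mcpt4) and in 22.6% of 32851 windows of the same length. TATAAA occurred in 4 (Cpa3, Mcpt1, Mcpt4 and Ctsg), against 12.4% of all windows. In Ctsg it lay at -237 to -232, on the opposite strand. Mcpt1 and Mcpt4 have windows of 81.0% identity, so the matches they share are not separate cases. In Mcpt1 the GATAA lay at -98 to -94 and the TATAAA at -28 to -23 from the start site, and in Mcpt4 at -102 to -98 and -32 to -27. TGTGGT, the RUNX core, occurred in 5 of 7 (all but Cma1 and Mcpt9), against 14.0%. CACGTG and CATGTG, E-boxes of the kind that Mitf binds, were in 0 and 1 of 7, against 6.02% and 12.3%, and the STAT motif TTCNNNGAA was in 1, Ctsg, against 7.02%. All motifs were searched on both strands. In Ctsg the matches to TGTGGT and CATGTG overlapped, and matches to GATAA and TATAAA did not overlap in any of the 7. These matches describe letters in these windows and were not tested as binding sites.

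Mcpt2, encoded beside Mcpt1 and a mucosal mast cell protease, read 5.19, 5.86 and 5.16 in WT and 5.56, 6.31 and 5.66 in KO. WT replicate 2 was above KO replicates 1 and 3, so the groups overlapped. The difference was 0.44 (SE 0.23, interval -0.09 to 0.97, adjusted p = 0.507), the same size as that of Mcpt4 with a wider spread. Leaving out KO replicate 2 gave 0.21 (adjusted p = 0.791), and leaving out WT replicate 2 gave 0.67 (adjusted p = 0.270). Mcpt9 and Cma2 share 2 probe sets, whose signal cannot be given to either gene. They read 6.89 ± 0.02 and 6.38 ± 0.07 in WT and 6.81 ± 0.12 and 6.26 ± 0.07 in KO (SD, n = 3). Chymase genes of this cluster are close relatives, and whether their probes cross-hybridise was not tested.

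Mcpt8 varied more between cultures than any other member, and not by genotype. It read 7.56, 5.23 and 7.26 in WT and 5.64, 6.18 and 7.58 in KO. WT replicate 2 and KO replicate 1 were low, KO replicate 2 was between, and WT replicates 1 and 3 and KO replicate 3 were high. The cultures thus spanned 5.03-fold within WT and 3.86-fold within KO. The pooled SD within genotypes was 1.14, which 4 of the 19938 genes exceeded (Akr1c18, Smpx, Adgrg7 and Tnfsf4, named after their values were seen), where the median over all genes was 0.12. The difference between genotypes was -0.22 (SE 0.64, interval -1.67 to 1.23, adjusted p = 0.948), an interval that leaves its direction unknown. Leaving out WT replicate 1 or 3 turned it to 0.22 or 0.07, and leaving out KO replicate 1 to 0.20. It was -0.95 when WT replicate 2 was left out and -0.78 when KO replicate 3 was. In bulk RNA, fewer cells with Mcpt8 and less Mcpt8 RNA per cell cannot be told apart.

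Some other genes moved in part with Mcpt8 across the 6 cultures. Prss34, a tryptase-like protease of basophils, read 5.10, 4.11 and 5.61 in WT and 3.99, 4.12 and 4.65 in KO. It was low where Mcpt8 was low and highest in WT replicate 3. In KO replicate 2 it was as low, and in KO replicate 3, where Mcpt8 was highest, it reached only 4.65. Gzmb, granzyme B, encoded in the same cluster, read 12.11, 11.53 and 11.97 in WT and 11.49, 11.51 and 11.98 in KO, over a 1.54-fold range. Like Mcpt8 it was highest in WT replicates 1 and 3 and KO replicate 3, while KO replicate 2, intermediate for Mcpt8, was as low as WT replicate 2 and KO replicate 1. The basophil receptor gene Cd200r3 did not follow, at 8.32 to 8.57 over all 6 arrays, and the integrin gene Itga2, another basophil marker, averaged 3.10 in WT and 3.07 in KO, under the array medians. The basophil marker Itga2b was lowest in KO replicate 3, at 10.66, and Il3ra read 7.08 to 7.30 over all 6 arrays. Among genes with a mean of at least 5, the profiles nearest to that of Mcpt8 were Kif11, Ska3, Pclaf and Mad2l1, which serve the mitotic spindle, the kinetochore, DNA replication and the spindle checkpoint. Likeness was the root mean square difference of values centred on each gene's mean over the 6 arrays. It was 0.44 for Kif11, 0.47 for Ska3 and 0.49 for Pclaf and Mad2l1, against 0.59 for Prss34, 0.70 for Gzmb, 0.92 for Cd200r3 and 0.94 for a flat profile. Values were not scaled to a common spread. A gene of narrow range, such as Gzmb, therefore stays far from Mcpt8 whatever the shape of its profile. The order of these genes reflects size as well as shape. Kif11 read 6.70, 5.51 and 6.90 in WT and 4.82, 6.03 and 6.67 in KO. This comparison was made because of Mcpt8's spread, after its values were seen, and the part of cell division or of basophils in it was not tested.

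**Figure D2:**
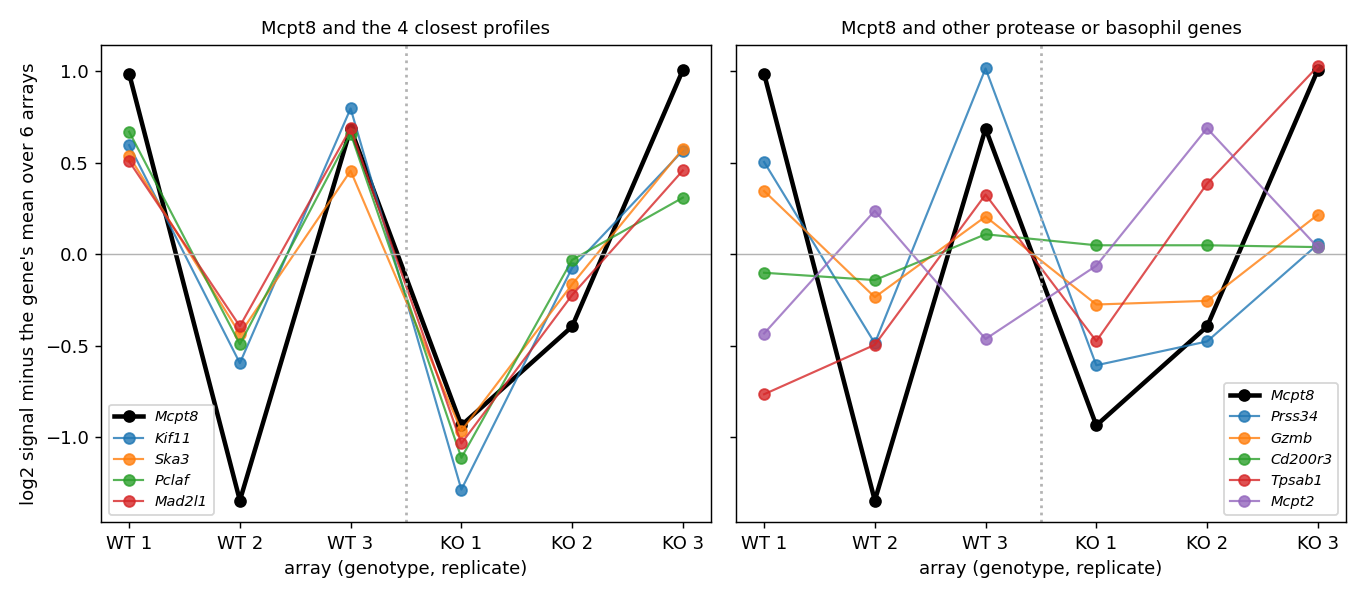
Profiles over the 6 arrays (horizontal axis: genotype and replicate; vertical axis: log2 signal minus the gene's mean over 6 arrays), with Mcpt8 in black beside its 4 nearest profiles (left) and beside other protease or basophil genes (right). Lines join a gene's points and imply no order of the cultures. Mcpt8 is low in WT replicate 2 and KO replicate 1 and high in WT replicates 1 and 3 and KO replicate 3, as are Kif11, Ska3, Pclaf and Mad2l1, while Cd200r3 stays within 8.32 to 8.57.

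Tpsab1, the tryptase also called Mcpt7, also varied between cultures, with another pattern. It read 5.50, 5.77 and 6.59 in WT and 5.79, 6.65 and 7.29 in KO. WT replicate 3 exceeded KO replicate 1 and nearly reached KO replicate 2, so the groups overlapped. The difference was the largest of the members, 0.62 (SE 0.38, interval -0.23 to 1.48, 1.54-fold), and did not pass (adjusted p = 0.579). Leaving out KO replicate 1 gave 1.02 (adjusted p = 0.259), and leaving out KO replicate 3 gave 0.27 (adjusted p = 0.873). Its pooled SD of 0.67 was exceeded by 80 genes. Its neighbour Tpsb2 had a pooled SD of 0.26 and Tpsg1, a membrane-bound tryptase that lies next to Tpsb2, 0.03. Ctsg, at the other end of the scale, read 3.47 to 3.62 in WT and 3.45 to 3.56 in KO, with a difference of -0.07 (SE 0.09, adjusted p = 0.822).

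Over the members together, 0 of 9 changed by limma at an adjusted p under 0.05, where 0.823% of all genes tested did (164 genes, 0.507% higher and 0.316% lower in KO). The lowest adjusted p was 0.174, and 1 of 9 (11.1%) had an unadjusted p under 0.05, close to the 12.7% of all genes. The difference was positive in 7 of 9 and negative in 2 (Mcpt8 and Ctsg). The median difference was 0.13, and over all genes it was -0.01. Within KO, replicate 1 was the lowest array for 7 of the 9 members, all but Mcpt4 and Ctsg, and for 36.8% of all genes. KO replicate 1 is the array that lay apart. Without it 0 members passed, and the difference was 0.38 for Mcpt4.

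**Figure D3:**
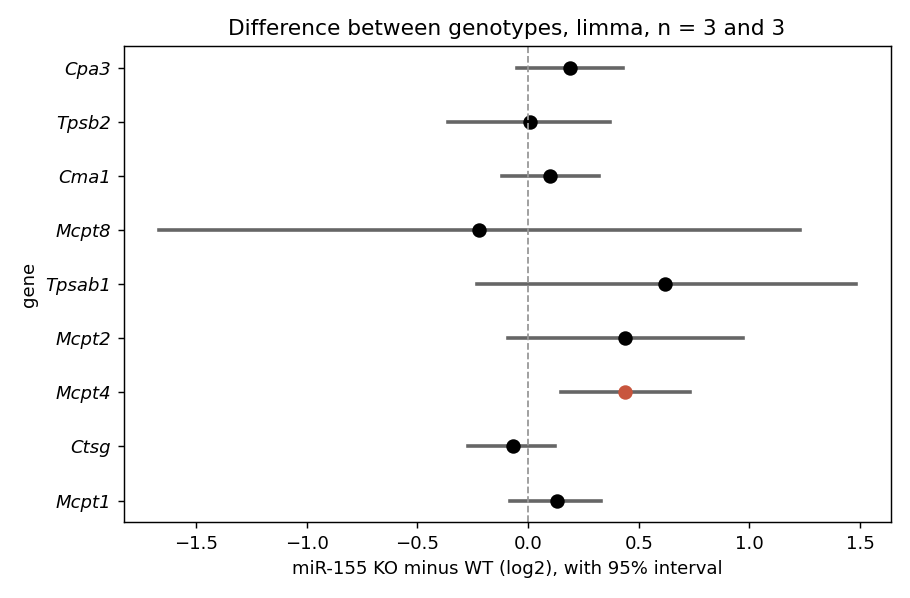
Difference between genotypes for each granule protease (horizontal axis: miR-155 KO minus WT, log2; points are limma estimates from 3 and 3 arrays, lines their 95% intervals). Only the interval of Mcpt4 (0.15 to 0.73, red, groups without overlap) lies off 0 among the 9, before any adjustment for the number of genes, and that of Mcpt8 is widest (-1.67 to 1.23).

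By the fixed rule, the genes whose values over the 6 arrays lay nearest to those of Mcpt4 were Atp11a, Gpn2, Eif2b4 and Zswim6. Atp11a, a phospholipid flippase, was nearest, with a root mean square difference of 0.04 after centring, against 0.27 for a flat profile. It read 7.38, 7.22 and 6.90 in WT and 7.64, 7.37 and 7.62 in KO (adjusted p = 0.270). The other three were at 0.07.

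Around the members on chromosome 14, changes appeared in the granzyme genes. Of 7 measured neighbours of the chymase cluster 2 rose, 0 fell and 5 did not pass, with a median difference of 0.13. Over all genes tested 0.507% rose and 0.316% fell. Gzmd, granzyme D, read 2.74, 3.32 and 2.84 in WT and 5.49, 4.51 and 5.61 in KO, without overlap. It rose by 2.23 (SE 0.27, adjusted p = 0.0124). Gzme, granzyme E, next to Ctsg, rose by 1.16 (SE 0.18, adjusted p = 0.0289), from 2.97 ± 0.22 to 4.14 ± 0.35. Both WT means lay under the array medians, so the WT signal may be background and the sizes inexact, and granzymes C to G are close relatives whose probes may not separate them. The call for Gzmd was lost when WT replicate 1 or WT replicate 3 was left out and when every probe set was tested (adjusted p up to 0.105). That for Gzme was lost in the same cases, when WT replicate 2 was left out and when replicate number was a block (adjusted p up to 0.159). Gzmc differed by 0.87 (adjusted p = 0.0860). Beside the tryptases 0 of 10 neighbours passed by limma (1 at an unadjusted p under 0.05, against 12.7% of all genes), the median being -0.01. Prss30 differed by -0.29 (adjusted p = 0.215), Prss34 by -0.69 (0.464) and Tpsg1 by 0.13 (0.589), the last at 11.53 ± 0.04 in WT and 11.66 ± 0.02 in KO.

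The partners of the proteases in the granule did not pass either. Of 16 measured genes of the granule matrix and amines 0 passed by limma, 8 had an unadjusted p under 0.05 (12.7% of all genes), and 9 had groups without overlap, 4 above and 5 below WT (17.2% of all genes, and 27.1% of those with a mean of at least 5). Srgn, serglycin, the proteoglycan core that retains the proteases, read 12.42, 12.50 and 12.55 in WT and 12.64, 12.74 and 12.74 in KO. All KO arrays were higher, by 0.21 on average (SE 0.08, adjusted p = 0.311). Ndst2, which sulphates heparin and is needed for protease storage, differed by -0.57 (SE 0.19, adjusted p = 0.220). It read 10.33, 10.18 and 10.31 in WT and 9.24, 10.08 and 9.78 in KO, lowest in KO replicate 1. Of the heparin chain enzymes, the lowest p belonged to Ext1, Hs6st1 and Xylt1, which differed by -0.56, -0.55 and -0.58 (adjusted p = 0.0861, 0.109 and 0.126), all 3 without overlap. Xylt2 differed by -0.25 (limma adjusted p = 0.214), also without overlap. Other chain enzymes of the list lay nearer 0 or on the other side, with Ext2 at -0.20, B3gat3 at -0.03, B4galt7 at 0.01, Hs2st1 at 0.03 and Glce at 0.16. Chst11, also in the list, went the other way by as much, at 0.55 (limma adjusted p = 0.133), with KO above WT without overlap. Chst15 was at -0.23 (limma adjusted p = 0.514). Hdc, which makes histamine, differed by 0.84 (SE 0.28, adjusted p = 0.233).

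Ctsc, the dipeptidyl peptidase that activates mast cell chymases, averaged 10.26 in WT and 10.25 in KO. Of 10 processing enzymes 0 passed by limma (1 at an unadjusted p under 0.05, against 12.7% of all genes). That enzyme was Furin, a proprotein convertase, at 0.44 (SE 0.11, adjusted p = 0.119). Ctsd, cathepsin D, differed by -0.19 (adjusted p = 0.447) and Ctsh, cathepsin H, by 0.12 (0.774).

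Among 9 measured protease inhibitors 2 rose, 0 fell and 7 did not pass, with a median difference of -0.02. Over all genes tested 0.507% rose and 0.316% fell. Serpinb9, an intracellular inhibitor of granzyme B, read 4.64, 4.56 and 4.61 in WT and 6.61, 6.12 and 5.82 in KO. The WT cultures lay close together, every KO culture was higher, and the rise was 1.58 (SE 0.17, 2.99-fold, adjusted p = 0.00848). Serpinb6b, an inhibitor of granzyme A, rose 2.99-fold (SE 0.18 on the log2 scale, adjusted p = 0.0102), from 3.87 ± 0.18, near the array medians, to 5.45 ± 0.39. Both were lost without WT replicate 1 or 3 and over every probe set (adjusted p up to 0.0855 and 0.0926). Serpinb6a differed by 0.26 (adjusted p = 0.375), with groups that overlapped, and Serpinb1a, an inhibitor of chymotrypsin-like and elastase-like proteases, by -0.12 (adjusted p = 0.783).

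Transcription factors of mast cells showed 0 of 12 passing by limma (4 at an unadjusted p under 0.05, against 12.7% of all genes), with a median of -0.07. Gata2, which sustains mast cell protease genes, averaged 11.03 ± 0.08 in WT and 10.91 ± 0.03 in KO (adjusted p = 0.666), and Mitf, known to drive chymase and tryptase genes, 7.86 ± 0.10 and 7.57 ± 0.20 (adjusted p = 0.336). The lowest p values belonged to Lmo2 (-0.62, adjusted p = 0.0760), Stat5a (0.68, 0.0924) and Cebpb (0.51, 0.253). By limma 0 of 7 surface markers passed (0 at an unadjusted p under 0.05), Cd63 differing by -0.22 and Ms4a2, the receptor's beta chain, by -0.19. The same held for 0 of 5 basophil and 0 of 11 neutrophil genes (0 and 0 at an unadjusted p under 0.05), the latter led by Prtn3 at -0.22 (adjusted p = 0.567). Of 9 macrophage markers 1 fell, where 0.316% of all genes did. This was the chemokine receptor Cx3cr1, by 0.95 (SE 0.14, adjusted p = 0.0280). Its call was lost over every probe set and without each array in turn except KO replicate 2 (adjusted p up to 0.151).

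**Figure D4:**
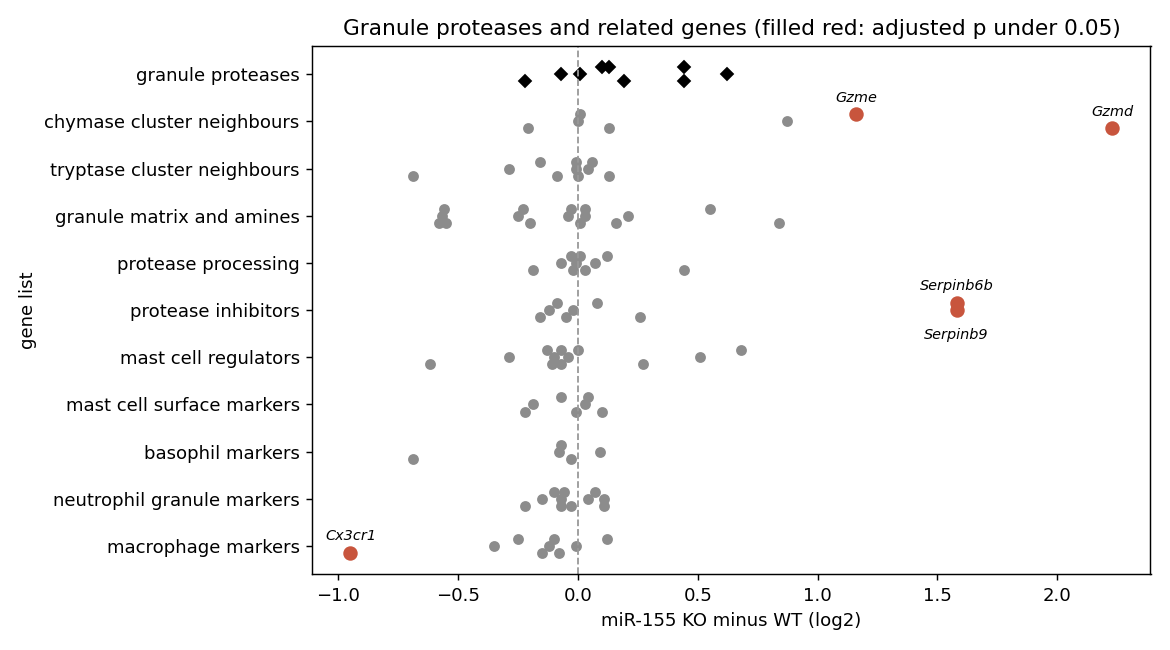
Differences between genotypes (horizontal axis: miR-155 KO minus WT, log2) for the 9 granule proteases (black) and the measured genes of 10 related lists (rows, grey; red where the limma adjusted p was under 0.05). The proteases lie between -0.22 and 0.62, and the red genes are Gzmd, Gzme, Serpinb6b, Serpinb9 and Cx3cr1.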

How the data were processed

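The deposited values are log2 intensities of 35557 probe sets, which the authors computed with RMA according to the submitters' processing notes. Its version and the genome build are not given in the sources used here. The method subtracts background, normalizes arrays to each other and combines probes, which can compress differences at the floor of the scale. The platform annotation gave 21789 probe sets 1 symbol, 1621 several, and did not list 12147. Each symbol kept its brightest probe set (19938 genes). limma 3.58.1 (R 4.3.3; lmFit, eBayes) compared 3 KO with 3 WT arrays, two-sided, Benjamini-Hochberg adjusted over all genes. A gene is said to have changed, risen or fallen at an adjusted p under 0.05. SE is the moderated standard error, and intervals use 8.68 degrees of freedom. For arrays, their number limits the precision. Data were simulated from the 19938 genes' means and moderated spreads, with independent normal noise and no outlying array. On them this KO against WT fit recovered 99% of genes shifted by 1 log2 unit, while 7.34% of its calls were false. Smaller shifts were not simulated, so the share does not cover differences of the size seen in the members (0.62 at most). The shifted genes were drawn from all genes. Their share does not carry over to variable genes such as Mcpt8 (SE 0.64) and Tpsab1 (SE 0.38). Promoters were aligned with Biopython 1.88, and plots drawn with matplotlib 3.10.9.

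The members and lists were chosen with earlier results of these data known. Named are all members, from each list the changed genes or else up to 3 of lowest p, 14 genes fixed by name, and the 4 profiles nearest to the member of lowest p. The others were chosen after their values were seen. They were Gzmb, Gzmc, Enpp3, Itga2, Itga2b, Cd68, further heparin chain enzymes, Chst11, Chst15, Serpinb6a, Serpinb1a, the profiles near Mcpt8 and genes of widest spread. The alternatives were a replicate block, median centring, quantile normalization, leaving out genes with a mean under 5, array weights, a trended and robust prior, averaging a gene's probe sets, testing all probe sets and leaving out each array.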

Additional observations from a re-analysis of the deposited data

How the results depend on the processing

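Under the 14 alternatives 0 members passed at an adjusted p under 0.05, and the 123 values of single members changed direction 7 times. By quantile normalization Tpsb2 was at -0.10, and Cpa3, which ranked 5 on all 6 arrays, had equal values by construction and so no direction. Cma1 was at 0.03 there. Leaving out each array in turn gave -0.95 to 0.22 for Mcpt8 and -0.12 to 0.20 for Tpsb2. Tpsb2 was negative without WT replicate 1, KO replicate 2 or KO replicate 3. The genes changed over all genes numbered 15 to 167 without 1 array (15, 43 and 27 without WT replicates 1, 2 and 3; 103 and 74 without KO replicates 1 and 3) and 4 when every probe set was tested. Without 1 array the changed genes numbered 0 to 2 near the chymases, 0 to 2 among inhibitors, 0 to 1 among regulators (Stat5a, without KO replicate 2) and 0 to 1 among macrophage markers. With every probe set they numbered 0 near the chymases, 0 among inhibitors and 0 among macrophage markers. Leaving out dim genes gave 0 near the chymases and 1 among inhibitors, because dim genes were no longer tested; Mcpt1, Mcpt4 and Ctsg had no value there. Trend and robust priors gave 1 regulator, Lmo2, as did the replicate block. The labels do not say whether replicate numbers pair the cultures. Deviations of same-numbered arrays correlated at -0.01, -0.06 and 0.24 over genes, and those of different-numbered arrays at -0.25 to 0.24. With so few arrays these values cannot settle it. With the block as a term, Mcpt2 and Tpsab1 had adjusted p of 0.0808 and 0.0884 and 0 members passed, while Gzme no longer passed and Gzmc did (adjusted p = 0.0445). Members near the array medians or below (Ctsg, Mcpt1) are limited by background signal.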

Other observations

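The gene with the widest spread within genotypes of all 19938 was Akr1c18, a hydroxysteroid dehydrogenase that inactivates progesterone, with a pooled SD of 1.89. It read 6.60, 3.09 and 6.43 in WT replicates 1, 2 and 3 and 3.32, 3.68 and 6.59 in KO replicates 1, 2 and 3. WT replicates 1 and 3 and KO replicate 3 were high, as for Mcpt8, and the other arrays were near or under the array medians. KO replicate 2, which was intermediate for Mcpt8, was among these low arrays. With a mean of 4.95 it was not in the search for profiles near Mcpt8, so its likeness to Mcpt8 was not measured. Adgrg7, an adhesion G protein-coupled receptor and the third in spread, read 4.97, 7.76 and 7.36 in WT and 4.88, 6.00 and 6.53 in KO, another pattern. Both were singled out after their values were seen.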
